A study of Mus musculus with 8 samples.

Results

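Liver DNA of C57BL/6J mice was profiled by HELP-tagging at sites of the restriction enzyme HpaII, and the sites described here are those with 50 or more tags in the MspI reference. Lingonberry samples (n = 4) came from a high-fat diet that held lingonberries, and HFD samples (n = 4) from that fat-rich diet alone. Both groups thus shared strain, tissue and fat-rich diet, and no source used here gives ages or says that each sample was a separate animal. A site was kept where it lay on an autosome, was listed in all 8 samples and had at least 50 MspI tags, which left 98053 of 1310003 sites listed in every sample, or 7.76% of 1263517 autosomal ones. A further 343 sites with 50 or more tags lay on other chromosomes and were not used. The 98053 sites are called well covered below.

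HpaII cuts CCGG only when the CpG in its centre is unmethylated, whereas MspI cuts CCGG in either state. In HELP-tagging a short tag is sequenced at each cut end, so that HpaII tags mark unmethylated sites and MspI tags show how readily a site yields tags at all. In mammalian genomes most isolated CpGs are methylated, while CpG islands, dense runs of CpG that often lie at gene starts, are mostly unmethylated. Each deposited file gives an m-score per site, which behaved as the angle between the HpaII and MspI tags and runs from 0 (no HpaII tag, methylated end) to 100 (unmethylated end). One MspI reference of 29676324 tags, scaled to the HpaII total of each sample, served all 8 samples. It therefore enters both diets alike at a site, though the number of MspI tags still sets the size of a difference in m-score. Scores are relative within a sample, and a lower score in one class of sites goes with a higher one elsewhere.

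The promoters of 6 genes that hold well-covered sites are shown first, as examples along the scale, chosen after their values were seen. The sequences are the 250 bases before the start of transcription from RefSeq (GRCm38.p6), 5′ to 3′ on the strand of the gene. Their windows are chr3:95559427-95559676 (plus strand) for Hormad1, chr1:166238745-166238994 (minus strand) for Mael, chr6:29059971-29060220 (plus strand) for Lep, chr17:15375824-15376073 (minus strand) for Dll1, chr2:26902888-26903137 (minus strand) for Surf6 and chr3:121815303-121815552 (minus strand) for Abcd3. Capitals mark the CCGG of the well-covered sites within these bases, and every other complete CCGG, in lower case, had fewer MspI tags. One further well-covered site of each gene but Hormad1 lies past the printed bases or runs over their end. Well-covered sites averaged below 25 in Hormad1, Mael and Lep, 75 or above in Dll1 and Surf6, and in between in Abcd3, as given with their values further on.
Hormad1: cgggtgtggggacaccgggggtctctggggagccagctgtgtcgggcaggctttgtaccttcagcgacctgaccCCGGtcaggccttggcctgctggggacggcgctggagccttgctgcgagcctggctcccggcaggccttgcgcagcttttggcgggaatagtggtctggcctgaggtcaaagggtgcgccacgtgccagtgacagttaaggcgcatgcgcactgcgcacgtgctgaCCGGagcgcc
Mael: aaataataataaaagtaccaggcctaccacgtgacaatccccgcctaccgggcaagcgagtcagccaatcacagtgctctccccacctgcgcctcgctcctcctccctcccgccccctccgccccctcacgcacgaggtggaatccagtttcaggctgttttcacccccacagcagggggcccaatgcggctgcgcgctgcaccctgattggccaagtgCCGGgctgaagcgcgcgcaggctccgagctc
Lep: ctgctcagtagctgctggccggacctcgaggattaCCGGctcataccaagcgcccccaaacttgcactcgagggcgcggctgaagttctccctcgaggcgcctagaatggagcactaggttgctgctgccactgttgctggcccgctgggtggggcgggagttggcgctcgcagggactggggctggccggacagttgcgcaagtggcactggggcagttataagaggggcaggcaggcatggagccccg
Dll1: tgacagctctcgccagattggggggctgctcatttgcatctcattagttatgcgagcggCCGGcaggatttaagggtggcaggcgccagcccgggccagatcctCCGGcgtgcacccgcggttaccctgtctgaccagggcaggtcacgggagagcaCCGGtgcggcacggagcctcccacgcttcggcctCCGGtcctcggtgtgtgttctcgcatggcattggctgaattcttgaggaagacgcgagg
Surf6: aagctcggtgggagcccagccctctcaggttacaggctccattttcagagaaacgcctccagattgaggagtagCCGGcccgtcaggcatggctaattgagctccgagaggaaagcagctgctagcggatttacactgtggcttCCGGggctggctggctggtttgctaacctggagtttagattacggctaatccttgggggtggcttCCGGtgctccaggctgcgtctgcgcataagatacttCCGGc
Abcd3: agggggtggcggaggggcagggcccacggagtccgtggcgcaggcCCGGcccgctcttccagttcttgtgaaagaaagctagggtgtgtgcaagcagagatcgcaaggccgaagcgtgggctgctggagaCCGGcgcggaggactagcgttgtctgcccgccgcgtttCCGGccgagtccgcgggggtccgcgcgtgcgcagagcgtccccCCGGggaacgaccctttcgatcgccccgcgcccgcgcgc

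Well-covered sites were not an even sample of the genome. Of them, 16640 (16.97%) were isolated, with no other listed site within 500 bp, 49405 (50.4%) had 1 to 4 neighbours and 32008 (32.6%) were clustered, with 5 or more. Among the 803164 autosomal sites with 10 to 49 tags the shares were 39.2%, 49.1% and 11.7%. Put the other way, 22.1% of all clustered autosomal sites were well covered, against 8.43% of sites with 1 to 4 neighbours and 3.12% of isolated ones. The median well-covered site had 60 MspI tags. Only 417 sites had 200 or more, of which 98 were isolated, 197 had 1 to 4 neighbours and 122 were clustered.

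Tags were concentrated on few sites at the top of the range. The well-covered sites held 26.5% of the MspI reference, and within that share the 417 sites with 200 or more tags held 18.9% and the 3 sites with most tags 11.02%. Recovered tag numbers that were not whole, read as tags shared between several places in the genome, occurred at 4987 well-covered sites (5.09%) but at 309 of the 417 sites with 200 or more tags (74.1%). A whole number does not show that the tags of a site come from a single place in the genome, which was not tested. The diet values of these 417 sites are given apart.

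Coverage was highest within a narrow range of distances to the nearest listed site. Of autosomal sites whose nearest neighbour lay 30 to 49 bp away, 28.8% were well covered, and of those at 50 to 99 bp, 20.2%. The share was 1.73% where the neighbour lay within 9 bp, 3.69% at 10 to 19 bp and 9.22% at 20 to 29 bp. Beyond 99 bp it was 9.34% at 100 to under 200 bp, 4.09% at 200 to 499 bp and 1.84% at 500 to 999 bp, with 3.34% at 1000 to 1999 bp and 4.64% at 2000 bp or more. These shares are properties of the one MspI reference, so they have no spread between samples.

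**Figure D1:**
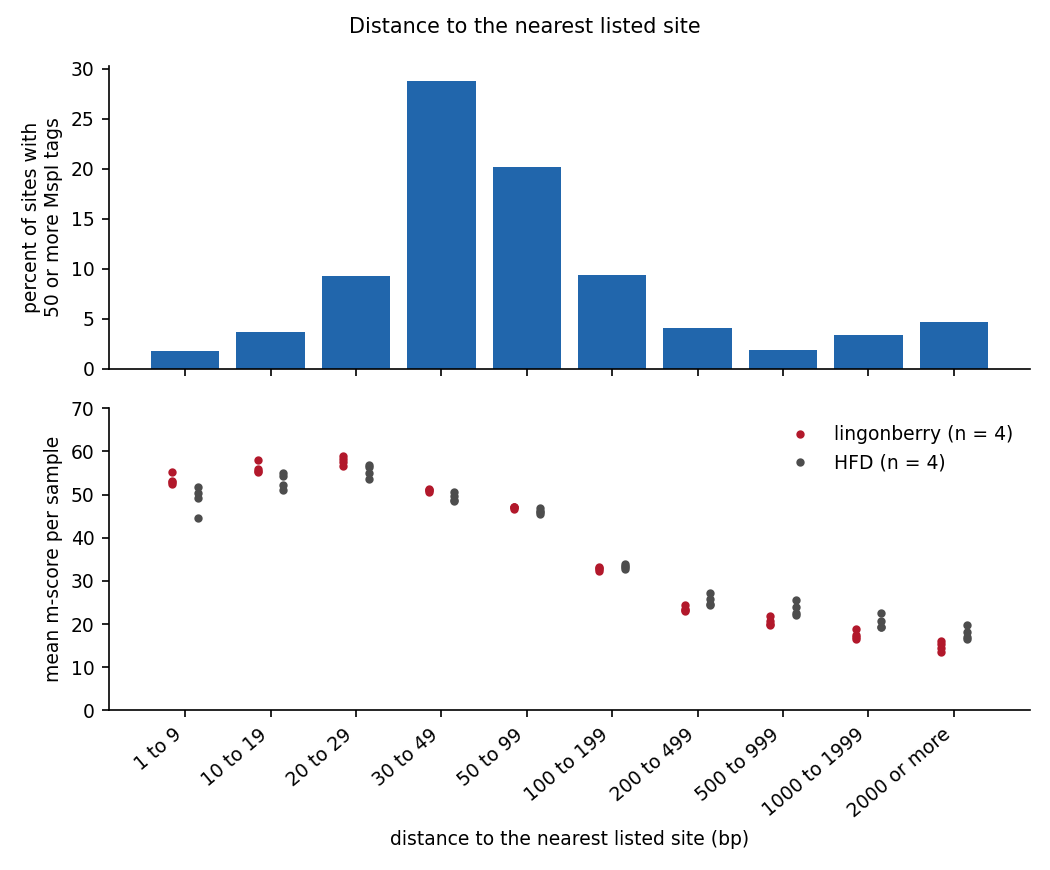
Top, percent of autosomal sites with 50 or more MspI tags by distance to the nearest listed site in bp. Bottom, mean m-score of those sites in each sample (points, n = 4 per diet), where lingonberry samples are the higher ones at the shortest distances and the lower ones from 200 bp up.

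Many well-covered sites lay at one end of the scale in all 8 samples. An m-score below 25 in every sample was found at 31772 sites (32.4%), and one of 75 or above in every sample at 6555 (6.69%). No HpaII tag was recovered from any sample at 2365 sites (2.41%), and at least 1 tag in every sample at 67396 (68.7%). The state followed local density. Below 25 in every sample lay 49.2% of isolated sites and 4.63% of clustered ones, whereas 5181 of the 6555 sites at 75 or above in every sample were clustered and 19 were isolated.

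Depth per library was uneven between the diets. The lingonberry libraries held 16060380, 9961952, 6104751 and 10196666 HpaII tags, and the HFD libraries 7018541, 6511377, 5858601 and 7411193. The largest libraries were thus in the lingonberry group, though its replicate 3 was among the smallest of all. At the median well-covered site these totals gave 20, 13, 8 and 13 HpaII tags in the lingonberry samples and 9, 9, 8.17 and 10 in the HFD samples, against 1 to 3 at sites with 10 to 49 MspI tags. A single HpaII tag at a site with 50 MspI tags was worth an m-score of 2.35 in the deepest library and 6.44 in the shallowest, and at a site with 10 MspI tags 11.6 and 29.9.

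Over all densities together, the spread between samples of a group narrowed with coverage. The median within-group SD of the m-score was 11.3 at sites with 10 to 19 MspI tags, 6.87 at 40 to 49, 6.13 at 50 to 74, 5.46 at 100 to under 200 and 3.09 at 200 or more. Sites of intermediate level (mean m-score 25 to 75), where a score can move both ways, showed the same order, with 17.3 at 10 to 19 tags, 8.79 at 50 to 74 and 6.31 at 200 or more. Local density shifted along with it, since 8.45% of sites with 10 to 19 tags and 50.9% of those with 100 to under 200 were clustered. The MspI tags are the denominator of the m-score, so the precision and part of any difference in level between coverage ranges follow from the choice of sites.

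**Figure D2:**
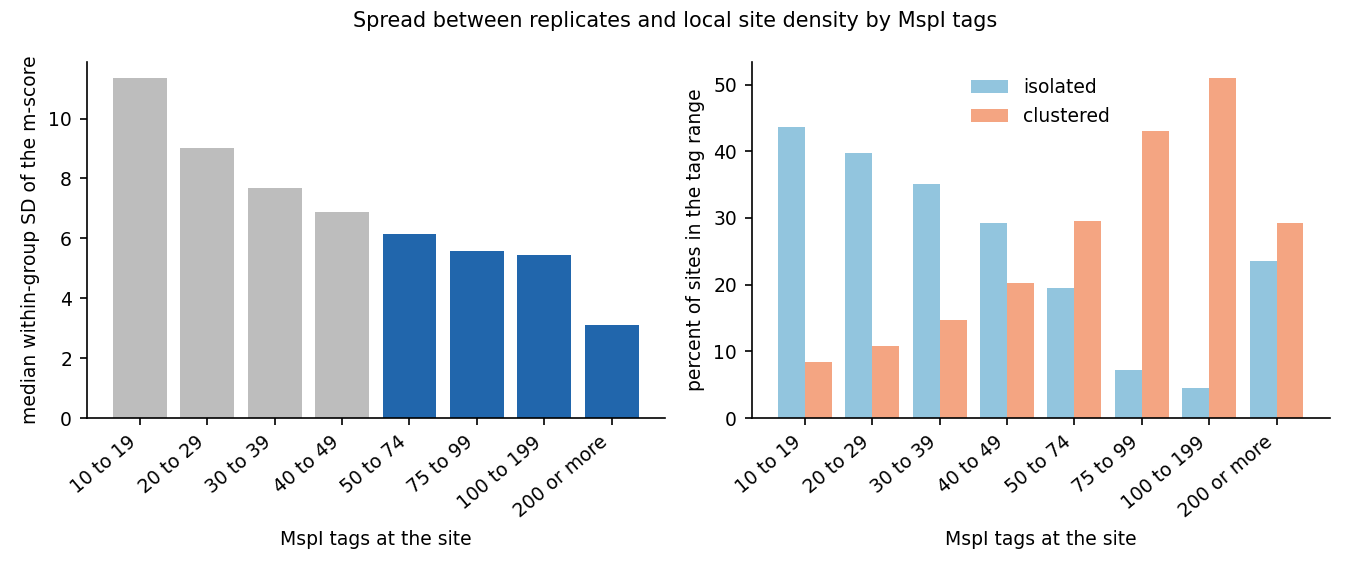
Left, median within-group SD of the m-score by number of MspI tags (blue, 50 or more; grey, fewer), which falls from range to range. Right, percent of the sites in each tag range that are isolated or clustered; the clustered share is highest at 100 to under 200 tags.

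Over all well-covered sites the diets had nearly the same mean m-score. The means were 38.9, 39.2, 39.1 and 38.9 in the lingonberry samples and 38.8, 38.8, 39.1 and 39.3 in the HFD samples. The groups overlapped, at 39.01 ± 0.155 with lingonberries and 38.99 ± 0.209 with HFD alone (SD, n = 4 each), a difference of 0.021 ± 0.13 (SE). Less covered sites, with 10 to 49 tags, averaged 27.3 ± 0.474 with lingonberries and 28.8 ± 0.690 with HFD alone, a difference of -1.53 ± 0.42 (SE), with every lingonberry sample lower. The near-zero mean depended on the tag minimum. With a minimum of 30 tags the difference was -0.85, and with 100 tags it was 1.10. No p is given for these means, as the classes were chosen with results of these data known.

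That mean joined opposite differences in sparse and dense sequence. Isolated well-covered sites had mean m-scores of 16.6, 17.4, 18.4 and 16.01 with lingonberries and 19.1, 20.3, 22.1 and 18.8 with HFD alone, so every lingonberry sample was lower. The difference was -2.99 ± 0.91 (SE). Sites with 1 to 4 neighbours had 27.0, 27.0, 27.6 and 27.1 with lingonberries and 27.1, 27.6, 28.2 and 27.8 with HFD alone, groups that overlapped, with a difference of -0.53 ± 0.26 (SE). Clustered sites had 68.8, 69.3, 67.7 and 69.0 with lingonberries and 67.1, 65.7, 64.6 and 67.7 with HFD alone. There every lingonberry sample was higher, the closest pair being lingonberry replicate 3 and HFD replicate 4, and the difference was 2.44 ± 0.77 (SE). Weighted by their shares of sites, the classes contributed -0.507, -0.268 and 0.796 to the difference over all well-covered sites.

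The same weights can be exchanged between coverage ranges. With the density makeup of sites with 10 to 49 tags, well-covered sites would average 28.1 ± 0.452 with lingonberries and 29.2 ± 0.612 with HFD alone, a difference of -1.15 ± 0.38 (SE) with every lingonberry sample lower. With the makeup of well-covered sites, those with 10 to 49 tags would differ by -0.55 ± 0.32 (SE), and the groups overlapped. Class by class, the diet difference at 10 to 49 tags was -2.79 where isolated, -1.31 with 1 to 4 neighbours and 1.78 where clustered. Well-covered minus less covered, the class differences were -0.195 ± 0.44, 0.782 ± 0.39 and 0.656 ± 0.48 (SE), and in each class the diets overlapped. The gap from isolated to clustered sites was wider with lingonberries, at -51.6 ± 1.57, than with HFD alone, at -46.2 ± 2.87 (SD, n = 4 each). Every lingonberry sample had the wider gap, as it had at 10 to 49 tags, where the gaps were -53.04 ± 1.36 and -48.5 ± 2.40.

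**Figure D3:**
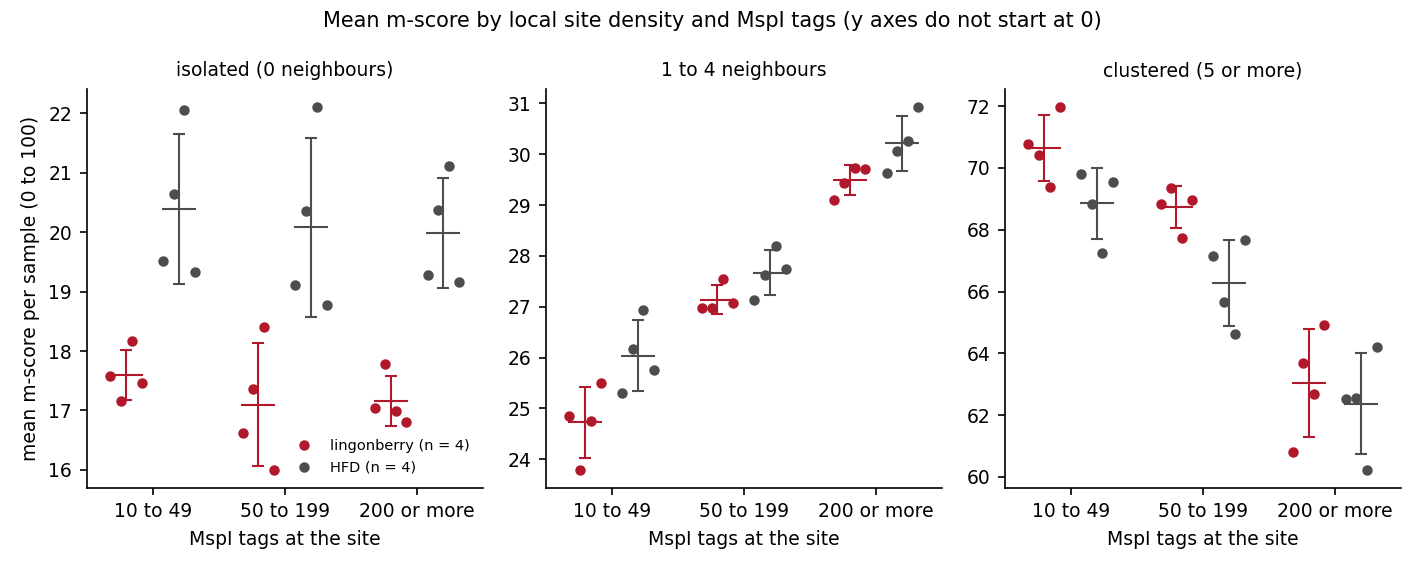
Mean m-score of each sample (points) with group mean and SD (bars, n = 4 per diet) by MspI tags, in panels for isolated sites, for 1 to 4 neighbours and for clusters; the y axes differ and do not start at 0. Lingonberry samples lie below HFD samples in each tag range of isolated sites and above them in clustered sites with 50 to under 200 tags, while the groups overlap in clustered sites with 10 to 49 and with 200 or more.

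The difference changed gradually with the number of neighbours rather than at the limits between classes. It was -2.99 ± 0.91 at sites with no neighbour, -1.40 ± 0.47 with 1 neighbour, -0.42 ± 0.29 with 2, 0.23 ± 0.23 with 3 and 0.89 ± 0.34 with 4 (SE, n = 4 per diet). With 5, 6 and 7 neighbours it was 1.51, 1.90 and 2.32, and it reached 3.20 ± 1.18 at the 2038 sites with 15 or more. Lingonberry samples all lay below HFD samples at 0 neighbours and all above them at every number from 7 up, and the groups overlapped from 1 to 6. Within 250 bp in place of 500 bp, sites with 1 to 4 neighbours and 50 to under 200 tags turned to 0.258.

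**Figure D4:**
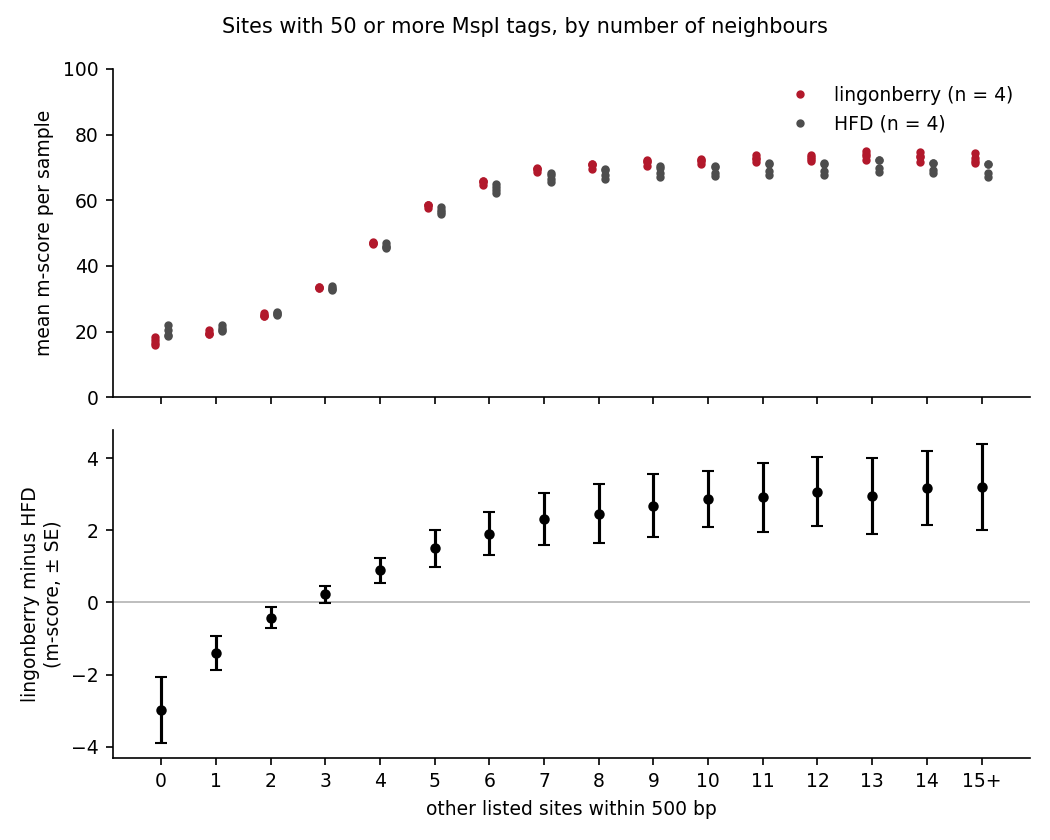
Sites with 50 or more MspI tags by number of other listed sites within 500 bp (15+ pools 15 or more). Top, mean m-score of each sample; bottom, lingonberry minus HFD with SE (n = 4 per diet), which crosses 0 between 2 and 3 neighbours.

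Distance to the nearest site gave a similar order. Where the nearest site lay within 9 bp (405 sites), the mean m-score was 53.4 ± 1.20 with lingonberries and 48.97 ± 3.12 with HFD alone, a difference of 4.46 ± 1.67 (SE). At 30 to 49 bp (25320 sites) it was 51.01 ± 0.268 and 49.4 ± 1.00, a difference of 1.60 ± 0.52, and in both ranges every lingonberry sample was higher. At 100 to under 200 bp the groups overlapped, with a difference of -0.494 ± 0.30. At 2000 bp or more (7014 sites) it was 14.8 ± 1.09 with lingonberries and 17.8 ± 1.39 with HFD alone, a difference of -2.99 ± 0.88, with every lingonberry sample lower.

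The diets also differed in the share of sites in the middle of the scale. Of the well-covered sites, 34.6% ± 1.73 had an m-score of 25 to 75 with lingonberries and 39.0% ± 2.11 with HFD alone (SD, n = 4 each), and every lingonberry sample was lower. The share at 75 or above was 20.6% ± 0.964 with lingonberries and 17.8% ± 1.45 with HFD alone. Lingonberry replicate 3, at 19.2845%, was only just above HFD replicate 4, at 19.2794%. Below 25 lay 44.8% ± 0.813 with lingonberries and 43.2% ± 0.729 with HFD alone, which overlapped. At isolated sites the share below 25 was 74.6% ± 2.45 with lingonberries and 68.7% ± 2.65 with HFD alone, and the lowest lingonberry value, 71.25%, exceeded the highest HFD value, 70.96%. At clustered sites the share at 75 or above was 48.7% ± 2.96 with lingonberries and 40.5% ± 4.52 with HFD alone, where lingonberry replicate 3 (44.4%) lay below HFD replicate 4 (45.1%).

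HpaII tags scaled to the library total divided in much the same way. This is not a separate test, since the m-score is made from these tags and from an MspI reference that is the same in both diets. The sites and levels were also chosen by MspI tags and m-score. Well-covered sites held 32.2% ± 1.08 of a library's HpaII tags with lingonberries and 30.8% ± 0.833 with HFD alone, and the groups overlapped (difference 1.35 ± 0.68, SE). Within them, isolated sites held 4.62% ± 0.499 of the tags with lingonberries and 6.43% ± 0.899 with HFD alone. Clustered sites held 64.8% ± 1.55 with lingonberries and 61.2% ± 2.11 with HFD alone, and neither pair overlapped. For isolated sites this depended on the 98 sites with 200 or more tags. Isolated sites with 50 to under 200 tags held 3.51% ± 0.335 with lingonberries and 4.56% ± 0.600 with HFD alone, which overlapped. Clustered sites in that tag range held 56.3% ± 1.01 with lingonberries and 52.7% ± 1.83 with HFD alone, which did not overlap. By level, the log2 ratio of HpaII tags scaled to the library total, lingonberry over HFD, was -0.38 ± 0.08 at isolated sites with a mean m-score below 25, -0.30 ± 0.10 at those between 25 and 75 and -0.68 ± 0.22 at the 138 isolated sites at 75 or above (SE, n = 4 per diet). At clustered sites it was 0.11 ± 0.07, 0.15 ± 0.05 and 0.14 ± 0.05 at the same levels, and at sites with 1 to 4 neighbours -0.15 ± 0.06, 0.00 ± 0.02 and -0.02 ± 0.11. Ratios were thus negative at all 3 levels of isolated sites and positive at all 3 of clustered sites. Each ratio pools the tags of its sites, so sites with many tags weigh most. The 138 isolated sites at 75 or above include chromosome 1 at 24621016. That site alone held 59526 HpaII tags with lingonberries and 72389 with HFD alone, not scaled to the library totals. The ratio of the 138 sites therefore leans on 1 site, and it was not computed without that site. The groups did not overlap at isolated sites below 25 or at 75 or above, nor at clustered sites at 75 or above, and they overlapped at the other levels.

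Library size went with the class means within each diet in part. The smallest lingonberry library, replicate 3, had the highest mean of its group at isolated sites and the lowest at clustered sites, and so did the smallest HFD library, which was also replicate 3. The largest HFD library, replicate 4, was at the opposite end in both classes. The largest lingonberry library, replicate 1, was not. It had 16.6 where isolated, against 16.01 in replicate 4, and 68.8 where clustered, against 69.3 in replicate 2. With every library thinned to the smallest HpaII total, the diet differences at 50 to under 200 tags were -3.06 where isolated, -0.63 with 1 to 4 neighbours and 2.31 where clustered, against -2.99, -0.53 and 2.44 unthinned. An SE covers the spread between these samples, which may be technical.

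Isolated sites with 200 or more MspI tags were lower with lingonberries too. Their mean m-scores were 17.04, 17.8, 16.998 and 16.8 with lingonberries and 19.3, 20.4, 21.1 and 19.2 with HFD alone, a difference of -2.83 ± 0.51 (SE) with every lingonberry sample lower. Without sites that share tags, which leaves 22 of the 98, the difference was -4.88. At sites with 1 to 4 neighbours it was -0.72 ± 0.31 (SE), and the groups overlapped. There it was -1.64 without sites that share tags, and -2.12 for medians, with every lingonberry sample lower. At clustered sites it was 0.65 ± 1.19 (SE), and the groups overlapped. Of the 122 clustered sites, 61 lay in a single stretch on chromosome 17 from 39979960 to 39985699 (mm9), over 5740 bp. That stretch held 240856 MspI tags, 16.2% of the tags at sites with 200 or more. Its mean m-score was 74.4 ± 2.22 with lingonberries and 74.6 ± 1.24 with HFD alone, and single sites in it ranged from 44.9 to 90.04. The other 61 clustered sites had 51.7 ± 1.32 with lingonberries and 50.2 ± 2.06 with HFD alone, a difference of 1.47 ± 1.22 (SE) that again overlapped.

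The 417 sites formed 240 stretches when sites within 2000 bp were joined, and 181 of these were single sites. Only 9 stretches held 5 or more. They differed widely in state. The 8 sites on chromosome 7 from 89919645 to 89920515 averaged 6.19 ± 1.12 with lingonberries and 7.15 ± 0.437 with HFD alone, and the 8 on chromosome 15 from 91737323 to 91740747 averaged 6.16 ± 1.27 with lingonberries and 5.71 ± 1.44 with HFD alone. All 8 of the sites on chromosome 15 shared tags and had the same mean, 5.94. The 5 on chromosome 11 from 108873030 to 108873196 averaged 74.0 ± 2.91 with lingonberries and 73.8 ± 3.18 with HFD alone. No annotation of the mm9 build was at hand, so the stretches are not named.

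The sites with most MspI tags lay on chromosome 2 at 98502952 (493631 tags), 98506420 (196216) and 98506661 (176194), and all shared tags with other places. They were at the methylated end. The first had m-scores of 2.63, 2.08, 2.04 and 2.03 with lingonberries and 2.73, 3.91, 3.67 and 3.68 with HFD alone, every lingonberry sample lower, but limma gave an adjusted p of 0.873. The fourth, chromosome 2 at 22444220 (29617 tags, none read as shared), had high m-scores in all 8. They were 93.7, 93.7, 91.7 and 80.8 with lingonberries and 93.5, 91.04, 94.5 and 93.8 with HFD alone. This site also held the most HpaII tags among well-covered sites without shared tags, 599574 in sum. The median well-covered site had 60 MspI tags, and whether the tags of this one come from a single place was not tested. The isolated site on chromosome 1 at 24621016 (17935 tags) had 75.6, 76.5, 82.04 and 54.6 with lingonberries and 80.8, 88.8, 88.3 and 84.3 with HFD alone, where lingonberry replicate 4 stood lowest and the groups overlapped through lingonberry replicate 3 (limma adjusted p = 0.873).

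High coverage without a single HpaII tag marked the methylated extreme. Of sites with no HpaII tag in any sample, the one with most MspI tags, on chromosome 8 at 41075731, had 295 and shared tags, and the highest without shared tags, on chromosome 2 at 77739855, had 190. At the opposite end, the 5 sites with most MspI tags among those at 75 or above in all 8 samples were the site on chromosome 2 at 22444220 and 4 sites of the stretch on chromosome 17. Between 50 and 200 tags, the site with most HpaII tags in each class, among those without shared tags, had a high m-score in both diets. That follows from the way it was picked. The isolated one, on chromosome 1 at 90176131 (159 MspI tags), averaged 78.2 ± 3.90 with lingonberries and 82.7 ± 3.20 with HFD alone. Sites with 1 to 4 neighbours were led by one on the same chromosome at 90173891 (137 MspI tags), with 87.9 ± 5.18 with lingonberries and 91.1 ± 1.75 with HFD alone. The clustered one, on chromosome 13 at 29045400 (69 MspI tags), averaged 92.9 ± 1.90 with lingonberries and 90.1 ± 3.38 with HFD alone.

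Single sites gave few calls. In limma on the m-score over all 1310003 sites, 176 passed an adjusted p of 0.05 (0.0134%), 52 higher (0.00397%) and 124 lower (0.00947%) with lingonberries. Of the 98053 well-covered sites 8 passed (0.00816%), a smaller share than among all sites. Higher with lingonberries were the sites on chromosome 12 at 80306682 and chromosome 3 at 34469277. The first had m-scores of 6.51, 7.0005, 5.72 and 6.84 with lingonberries and 0 in all 4 HFD samples (difference 6.52 ± 0.295, limma SE, adjusted p = 0.00403), from 3, 2, 1 and 2 HpaII tags. That call was lost when libraries were thinned (limma adjusted p = 0.699). The second had a limma adjusted p of 0.0476. It lost its call in the fit over sites with 10 or more MspI tags (limma adjusted p = 0.0829), with a pseudocount of 0.5 (0.157) and in 6 of 8 fits without 1 sample (0.0868 to 0.133). Lower were 6 sites, on chromosome 2 at 172722210, 9 at 55542703, 11 at 5101925 and at 67610562, 15 at 77363391 and 16 at 95933416, each with limma adjusted p = 0.00611. Each had 1 HpaII tag in every HFD sample and none in any lingonberry sample. The site on chromosome 15 at 77363391, with 50 MspI tags, thus had 0 in the lingonberry samples and 5.38, 5.795, 6.44 and 5.09 in the HFD samples.

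All 8 calls therefore rested on 4 to 9 HpaII tags in 1 group and 0 in the other, at m-scores of 8.21 or less. At the 6 lower sites the samples of a diet had the same number of tags, which left little spread within a group. At the 2 higher sites the lingonberry samples held 3, 2, 1 and 2 tags (chromosome 12) and 4, 2, 1 and 2 (chromosome 3). In the fit limited to sites with a mean of 10 or more HpaII tags no well-covered site passed. There 1630 of 50879 well-covered sites (3.20%) had an unadjusted p below 0.05, against 5.11% of all sites in that fit. None passed in limma on log2 tags scaled to the library total, with a pseudocount of 0.1. In that fit 6013 (6.13%) had an unadjusted p below 0.05, against 4.45% of all sites. Among the 67396 well-covered sites with a tag in every sample none passed in the fit over all sites. Of them 3886 (5.77%) had an unadjusted p below 0.05, against 4.17% of all sites tested. The smallest adjusted p among these 67396 sites, 0.199 in limma, belonged to chromosome 4 at 9063171 (146 MspI tags). It had 76.2, 78.4, 76.9 and 75.9 with lingonberries and 67.2, 67.4, 65.6 and 66.2 with HFD alone, a difference of 10.2 ± 1.14 (limma SE). Next came chromosome 6 at 146754203 (54 MspI tags, isolated), with 17.01, 23.5, 16.8 and 22.98 with lingonberries and 50.6, 59.5, 51.05 and 51.2 with HFD alone (difference -33.02 ± 3.71, limma adjusted p = 0.209). In both sites the groups were far apart but did not pass the correction, and the pair was picked after the values were seen.

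Below the threshold, the direction of single sites followed density. At an unadjusted p below 0.05 in limma, 3018 well-covered sites were higher with lingonberries (3.08%, against 1.63% of all sites tested) and 2265 were lower (2.31%, against 2.54%). Among isolated well-covered sites 5.01% were lower, against 3.12% of all isolated sites, and 0.889% were higher, against 1.09%. With 1 to 4 neighbours 2.52% were lower, against 2.39%, and 2.01% were higher, against 1.49%. Clustered well-covered sites were higher in 5.86%, against 4.24% of all clustered sites, and lower in 0.581%, against 0.928%.

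Counts of sites whose groups did not overlap had the same order. Every lingonberry sample was higher at 1576 well-covered sites (1.61%, against 0.66% of all sites) and lower at 1488 (1.52%, against 1.3%). Samples tied at the same value cannot separate. Of all 1310003 sites 197003 had equal group means, against 2365 of the 98053 well-covered ones, so these shares are not of like sites. The same holds for the shares by unadjusted p and by sign. The share that chance alone would give was not computed. Isolated sites were lower in 3.41%, against 1.59% of all isolated sites, and higher in 0.421%, against 0.312%. With 1 to 4 neighbours 1.65% were lower, against 1.24%, and 1.097% were higher, against 0.583%. Clustered sites were higher in 3.01%, against 2.29%, and lower in 0.325%, against 0.493%.

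By the sign of the difference alone, 46.3% of well-covered sites were lower with lingonberries, against 46.5% of all sites, and 51.3% were higher, against 38.5%. Isolated well-covered sites were lower in 67.2%, against 49.6% of all isolated sites, and higher in 30.3%, against 32.2%, with a median difference of -2.12. With 1 to 4 neighbours 51.4% were lower, against 46.8%, and 44.98% higher, against 38.1%, with a median of -0.16. Clustered ones were higher in 71.9%, against 64%, and lower in 27.5%, against 33.3%, with a median of 2.18. Of all sites, 197003 had equal group means, which count in neither direction.

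Well-covered sites near each other were in like states. Across the 6905 pairs of adjacent well-covered sites within 50 bp, which come from the same libraries, the mean m-scores had a Pearson correlation of 0.88, given as a description. It was 0.77 across 1146 pairs over 200 and up to 500 bp apart and 0.12 across 1435 pairs over 1000 bp apart. Sharp boundaries were rare: of 12539 pairs within 100 bp, 3 had one site at 75 or above in all 8 samples and the other below 25 in all 8. On chromosome 6, the site at 118146897 averaged 80.8 over the 8 samples and the site 35 bp on, at 118146932, averaged 9.70. On chromosome 14, the site at 67528675 averaged 10.3 and that at 67528725 averaged 81.8. The third pair, on chromosome 17, had 80.8 at 25965903 and 7.74 at 25965938. Tags were not shared at any of the 6.

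No autosome stood apart. The diet difference over well-covered sites lay between -0.338 on chromosome 1 and 0.378 on chromosome 11, and the groups overlapped on each of the 19 autosomes. The choice of 50 tags as the limit did not mark a step either. The 5975 sites with exactly 50 tags averaged 34.6 ± 0.235 with lingonberries and 35.3 ± 0.410 with HFD alone, and the 6379 with 49 tags averaged 34.8 ± 0.217 and 35.5 ± 0.412.

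Genes were attached to sites through promoter sequence, as no annotation of the build was at hand. CCGG, which reads the same on both strands, occurred in 52.8% of 32851 RefSeq promoter windows (250 bases before to 50 after the start). The spacing of the CCGG in the 4294 autosomal windows with 4 or more was compared with the spacing of listed sites, and 2446 windows (57.0%) matched exactly 1 run of sites. Well-covered sites lay in 1644 of the matched windows, of 1539 genes; 2503 sites formed 1524 distinct sets. The mean m-score of a set was 75 or above in 673, between 25 and 75 in 836 and below 25 in 15, with a median of 73.99. As each window holds 4 or more CCGG, these sets represent dense sequence and not genes at large.

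Between the diets, 1196 of the 1524 sets (78.5%) were higher with lingonberries and 328 were lower, with a median difference of 2.44. In 71 sets (4.66%) every lingonberry sample was higher, against 3.01% of single well-covered clustered sites and 2.29% of all clustered sites. Sets can average several sites, so these shares are not of like units. In 1 set (0.0656%), the well-covered site of Mtf1, every lingonberry sample was lower, against 0.325% of well-covered and 0.493% of all clustered sites. Mtf1 encodes a metal-responsive transcription factor. It had 31.3 ± 4.76 with lingonberries and 42.3 ± 5.53 with HFD alone, a difference of -11.04 ± 3.65 (SE). Among the 71 were Hspd1, a mitochondrial chaperonin, with 78.6 ± 1.496 and 73.1 ± 1.87 over 3 sites. Also among them were Clock, a circadian transcription factor, with 90.6 ± 1.41 and 85.1 ± 4.99 at 1 site, and Ctnnb1, which encodes beta-catenin, with 70.4 ± 3.52 and 63.5 ± 3.99 at 1 site (lingonberry and HFD means ± SD, n = 4 each). These names were picked from the 71 after their values were seen, and no set was tested on its own.

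The 3 shown promoters with the lowest scores are among the 15 sets that averaged below 25. They were picked after their values were seen, and the genes of the other sets are not given. Hormad1, which encodes a protein of meiotic chromosome axes, had 2 well-covered sites, at bases 75 and 241, counted from 1 at the 5′ end of the printed sequence. They held 0 HpaII tags in the lingonberry samples and 2 in the HFD samples, and averaged 0 with lingonberries and 0.906 ± 1.06 with HFD alone (SD, n = 4 each). Mael, a germ line factor of transposon silencing, had 2, at bases 220 and 270, the second past the printed part. They averaged 4.26 ± 3.26 with lingonberries and 4.66 ± 3.49 with HFD alone. Lep encodes leptin, the satiety hormone of fat cells. Its 2 well-covered sites, at bases 36 and 248, the second running over the printed end, averaged 17.9 ± 3.59 with lingonberries and 25.1 ± 10.6 with HFD alone, a difference of -7.28 ± 5.59 (SE), and overlapped. At base 36 the m-scores were 4.70, 11.3, 12.2 and 14.6 with lingonberries and 20.8, 5.795, 34.8 and 28.5 with HFD alone. A less covered site of the same window, at base 188 with 18 MspI tags, was higher, at 42.01 ± 17.1 with lingonberries and 52.3 ± 9.95 with HFD alone.

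The other 3 shown promoters each had 5 well-covered sites, as did 6 other sets of sites. Dll1 encodes a ligand of Notch receptors. Its sites, at bases 60, 105, 158, 192 and 273, averaged 80.3 ± 1.45 with lingonberries and 78.5 ± 0.949 with HFD alone, and overlapped. The site at base 158 had 87.9, 87.0, 88.03 and 87.7 with lingonberries and 85.7, 84.1, 86.1 and 84.4 with HFD alone, where every lingonberry sample was higher. Surf6, which encodes a nucleolar protein, averaged 75.9 ± 1.60 with lingonberries and 74.8 ± 1.20 with HFD alone. Its sites averaged, over the 8 samples, 86.1 at base 75, 80.9 at base 145, 73.2 at base 210, 74.03 at base 246 and 62.6 at base 295, and at base 295 every lingonberry sample was higher. Abcd3 encodes a fatty acid transporter of the peroxisomal membrane. Its sites averaged 68.97 ± 3.49 with lingonberries and 66.4 ± 5.72 with HFD alone, and varied among themselves, with 48.9 at base 169 between 84.8 at base 131 and 60.9 at base 212. Of the 9 sets with 5 well-covered sites, only that of 2900089D17Rik did not overlap, every lingonberry sample being higher.

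**Figure D5:**
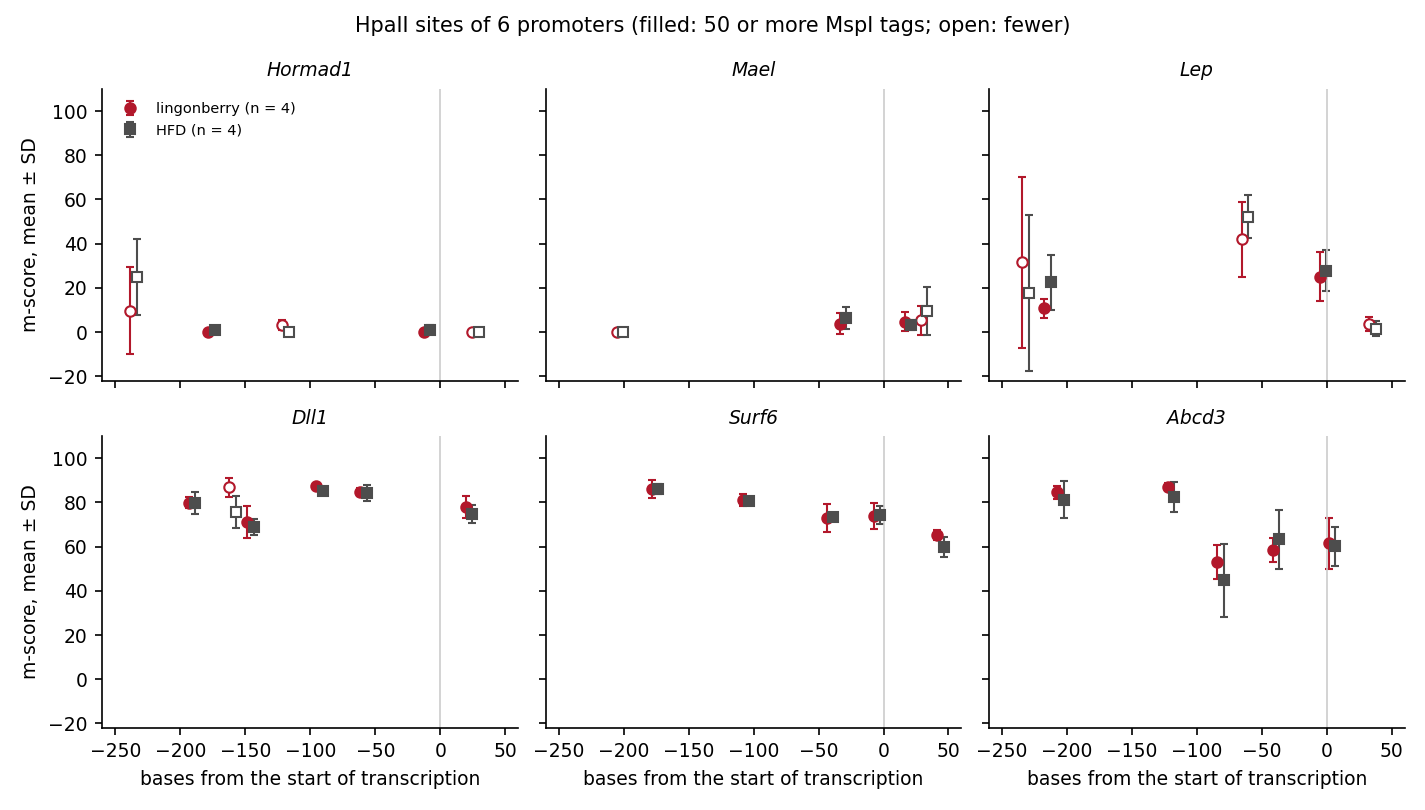
m-score (mean ± SD, n = 4 per diet) of each listed site in 6 promoter windows by distance in bases from the start of transcription; filled symbols have 50 or more MspI tags and open ones fewer, and the diets are drawn slightly apart. Sites of Hormad1 and Mael with 50 or more tags lie near 0, those of Lep below 30, and those of Dll1 and Surf6 at 59.97 or above in both diets.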

How the data were processed

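HELP-tagging libraries of mouse liver DNA were analysed in 8 samples, 4 with lingonberries and 4 with HFD alone. Per the file headers, each deposited file lists sites with an m-score and a confidence value, the score and the signal that the authors computed. No source used here states how both were computed, and the angle and tag units were read from the values. CASAVA and the mm9 build are named in the submitters' processing notes, and no source used here gives aligner settings.

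HpaII and MspI tags were recovered as the sides of the angle at 0.9 degrees per m-score unit. MspI values were divided by a unit, first the commonest value among sites with an m-score of 0. The unit of each sample was then refined by a slope on the whole MspI tags of the deepest sample, lingonberry replicate 1. The MspI tags of a site are the median over the 8 samples. Recovered HpaII tags were whole, within 0.02, at 96.1% to 97.0% of the sites with HpaII tags per sample. Neighbours were counted among sites listed in all 8 samples, within 500 bp. Tag totals ranged from 5858601 to 16060380 HpaII tags per sample.

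Class means are given with SD and SE and no test. Single sites were tested in limma 3.58.1 (R 4.3.3; empirical Bayes with trend, two-sided, Benjamini-Hochberg adjustment over 1310003 sites, threshold 0.05), with a script in Python 3.11.15, numpy 2.4.6, pandas 2.3.3 and matplotlib 3.10.9 for the rest. The limma step was tested on simulated data. It gave the right direction to each changed site, but these had many HpaII tags and a large change, so that outcome was near certain. Unchanged sites were called above its nominal rate, so single calls are uncertain. Simulated calls were not split by tag number, so the test does not show how limma behaves at few tags.

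Sites named were the 10 with most MspI tags and the 5 with most MspI tags and no HpaII tag. Also named were the 5 with most MspI tags at 75 or above in all 8 samples, and limma calls. In each class of density by tag range, the site with most HpaII tags and no shared tags was named. Other sites, stretches and promoters were named after their values were seen. Promoter names come from a match of CCGG spacing between RefSeq sequences (GRCm38.p6) and listed mm9 sites, and 99.5% of matches were shifted within 100 bases of the next match. The sites, classes and lists were chosen with earlier results of these data known. Alternatives were other tag minimums, radii, scalings and filters, thinning, log2 tags scaled to the library total with pseudocounts of 0.5 and 0.1, and leaving out each sample.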

Additional observations from a re-analysis of the deposited data

Results flagged for a closer look

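Of 121 groups of 4 samples examined, 5 held a value far from the other 3, and chance gives about 1 in 20, or 6.05. On chromosome 2 at 98502952, lingonberry replicate 1 had an m-score of 2.63, against 2.03 to 2.08 in the other lingonberry samples. On chromosome 2 at 22444220, lingonberry replicate 4 had 80.8, against 91.7 to 93.7 in the others of its group. In the stretch on chromosome 11 that starts at 108873030, HFD replicate 2 averaged 78.5, against 71.8 to 72.9 in the other HFD samples. In the Dll1 promoter, HFD replicate 2 averaged 79.9, against 77.95 to 78.1. In the Tial1 promoter, lingonberry replicate 4 averaged 79.7, against 74.6 to 75.3.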

How the results depend on the processing

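The isolated and clustered differences at 50 to under 200 tags kept their direction, and moved by less than the replicate SD, under every alternative run. Leaving out 1 sample at a time gave -3.42 to -2.31 for isolated sites, -0.712 to -0.357 for sites with 1 to 4 neighbours and 1.90 to 2.91 for clustered sites. At 200 or more tags it gave -3.10 to -2.45, -0.922 to -0.489 and -0.0584 to 1.40, over all well-covered sites -0.0369 to 0.110, and for the percent of HpaII tags 0.846 to 1.71. The difference over all well-covered sites (0.0209) was -0.849 with 30 or more tags, 1.10 with 100 or more and -2.04 for medians. At 1 to 4 neighbours and 50 to under 200 tags it was -1.46 for medians, 0.258 within 250 bp and -1.03 within 1000 bp. At 1 to 4 neighbours and 200 or more tags it was -1.64 without shared tags, -2.12 for medians, -0.200 within 250 bp and -1.17 within 1000 bp. Isolated sites with 200 or more tags had -4.88 without shared tags. The cause of these shifts was not tested. The 8 limma calls became 0 where sites had a mean of 10 or more HpaII tags, 0 on log2 scaled tags with a pseudocount of 0.1, 19 after thinning (5 of the 8 among them) and 15 to 30 without 1 sample. No paired analysis was possible because the labels give no replicate numbers; those used here follow accession order and tie no sample of one diet to one of the other. Depth limits single sites: 1 HpaII tag at 50 MspI tags is worth up to 6.44.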
